A study of Rattus norvegicus with 23 samples.

Results

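The genes described here encode the proteasome, its activators and the factors that assemble it. They were chosen by a rule on names that uses no measured value, but with earlier results of these data known. The rule took all protein-coding genes whose symbol starts with Psma to Psmg followed by a digit. It left out the interferon-inducible subunits Psmb8, Psmb9 and Psmb10. The rule found 47 of the 19249 genes in the table, of which 17044 are protein-coding. By role they are 8 alpha subunits and 8 beta subunits of the core particle, 6 ATPases and 11 non-ATPase subunits of the regulatory particle, 4 activators with 1 inhibitor, and 7 assembly factors. The rule also took in 2 genes that are named after subunits they bind but are not subunits, Psmc3ip and Psme3ip1. The proteasome subunits Adrm1 and Sem1 have other symbols and are described with the partner genes.

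The proteasome is the chamber in which cells break down proteins tagged with ubiquitin. Its core particle is a stack of rings, with beta subunits forming the inner rings that hold the cutting sites and alpha subunits forming the outer rings that gate the entrance. The regulatory particle caps the core, recognises and removes ubiquitin chains, and unfolds substrates with a ring of ATPases. Dedicated chaperones build the particles, and the transcription factor Nfe2l1 is known to raise proteasome genes together when the proteasome is overloaded or blocked. Oxidative damage from inhaled particles and gases is known to add damaged protein for the lung to clear.

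The samples were pieces of frozen lung from male rats exposed whole-body to filtered air or to smoke from burning eucalyptus wood, on 4 days, then after 3 days without exposure on 3 further days. Carbon monoxide in the chambers was targeted to 10 ppm for low smoke and 20 ppm for high smoke. Bulk RNA sequencing gave 7 libraries for air, 8 for low smoke and 7 for high smoke, each from a separate rat, out of 24 rats randomized with 8 planned per group. The strain and age of the rats were not given in the sources used here, all groups shared the same kind of animal and tissue, and each library is a piece of lung rather than a sorted cell type. Values are gene counts divided by a size factor for each library, called normalized counts below.

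Library totals corresponded to 8484161 to 12055512 reads. High smoke replicates 1, 3 and 7 stood apart from all other libraries on the first principal component of the genes tested, which carried 19.7% of the variance. Their scores were 51.5, 41.7 and 36.5, against 0.3 to 8.8 in the other 4 high smoke libraries and -21.6 to -0.3 in air, with low smoke at -12.7 to -1.8. The main results are therefore given with and without these 3 libraries. Lung markers were high in every group: summed counts of 9 epithelial marker genes, which include surfactant proteins, were at least 150466 in each library. In bulk tissue, fewer cells of a type and less RNA per cell cannot be told apart.

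In high smoke, part of the proteasome genes were higher than in air, and no class of them rose whole. In the beta ring 3 of 6 tested genes rose (50%), and in the assembly factors 4 of 7 (57.1%). The alpha ring had 1 of 7 (14.3%), the ATPases 1 of 6 (16.7%) and the non-ATPases 2 of 11 (18.2%). Those last shares rest on 1 or 2 genes each, beside 9.21% of all genes tested that rose. The 11 members that rose were the core subunits Psmb4, Psmb5, Psmb7 and Psma1, the regulatory particle subunits Psmc3, Psmd6 and Psmd7, and the assembly factors Psmg2, Psmg4, Psmd5 and Psmd10. The 2 members that fell, Psmd2 and Psmd12, are both regulatory particle subunits. The largest rise was that of Psmb4, 2.21-fold, and the smallest were those of Psmd5 and Psmd6, 1.31-fold and 1.31-fold. All fold changes are on the scale of log2(normalized count + 1).

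Of the 47 members, 44 had a mean of at least 10 over all libraries and were tested. The 11 that rose are 25% of these, beside 9.21% of the 14414 genes tested, and the 2 that fell are 4.55%, beside 7.05%. The other 31 did not pass the threshold, an adjusted p below 0.05 in limma with Benjamini-Hochberg adjustment over all genes tested. Estimates were above 0 for 33 and below 0 for 11, with a median log2 difference of 0.11 beside -0.00 for all genes tested. The 2 smoke groups were each compared with the same air libraries, so those comparisons are not independent. Over all genes, 56.6% of the genes called were higher in high smoke with the values as deposited and 33.2% after scaling each library to the same total, which shifted the median gene to -0.08. With equal totals, 10 members rose and 3 fell, beside 894 risen and 1797 fallen of the 14414 genes tested. Psmb5 missed the threshold there and Psmd11 passed it. By the exact rank-sum test 6 members rose and 1 fell, beside 468 risen and 278 fallen of the 14414 genes tested. Psma1, Psmb5, Psmb7, Psmd6 and Psmd10 missed the threshold of the rank-sum test, with adjusted p of 0.0566 to 0.170.

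**Figure D1:**
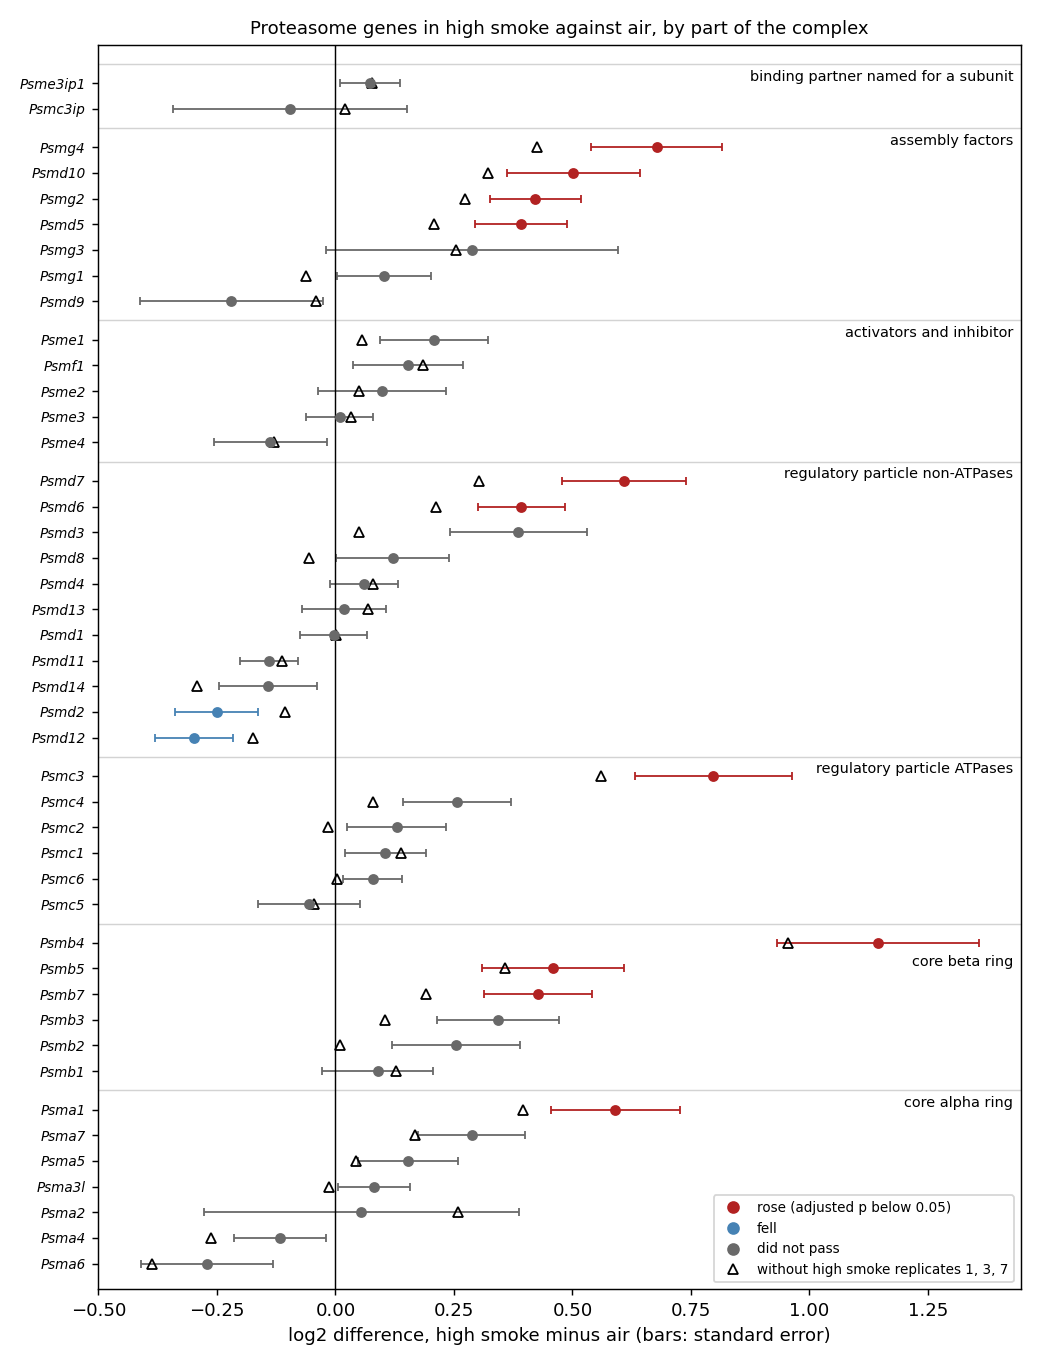
Log2 difference of high smoke from air (horizontal axis) for the 44 members tested, grouped by role. Points are limma estimates with standard errors, red for the 11 that rose, blue for the 2 that fell and grey for the rest, and open triangles are the estimates without high smoke replicates 1, 3 and 7. The triangles of all 11 red points lie above 0, closer to 0 than the points. The libraries behind the triangles also entered the choice of the 11.

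The beta ring was the core component with the most calls: 3 of its 6 tested subunits rose, none fell, and the median log2 difference was 0.39. Psmb4, a structural subunit with no cutting site of its own that serves in ring assembly, lies at chr2:196043618-196046312 on the minus strand in rn6. Its normalized counts ran from 373 to 967 in air (median 508), from 581 to 1653 in low smoke (median 931) and from 757 to 1607 in high smoke (median 1268). In high smoke 6 of 7 libraries lay above every air library, and the remaining one lay below the highest air library, so the groups overlapped at that point. The mean moved from 568 ± 203 (SD, n = 7) in air to 1235 ± 311 (SD, n = 7) in high smoke, a log2 difference of 1.14 (SE 0.21, limma adjusted p = 0.00146). Without replicates 1, 3 and 7 the difference was 0.95 and did not pass.

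Psmb5 carries the chymotrypsin-like site, the main target of proteasome inhibitors. It ran from 81.7 to 192 in air (median 137), from 112 to 159 in low smoke (median 137) and from 128 to 232 in high smoke (median 187). The groups overlapped, with 3 of 7 high smoke libraries above all air libraries and the lowest high smoke library close to the air mean. The log2 difference was 0.46 (SE 0.15, limma adjusted p = 0.0378). This call was lost when any 1 of air replicates 1, 2, 4, 5 and 6 or high smoke replicates 1, 3, 5 and 7 was left out, with differences of 0.35 to 0.47 in those fits. It was also lost with libraries scaled to equal totals (0.38, limma adjusted p = 0.0810).

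Psmb7 carries the trypsin-like site. Its counts ran from 675 to 916 in air (median 721), from 724 to 1047 in low smoke (median 855) and from 786 to 1352 in high smoke (median 909). Only replicates 1, 3 and 7 lay above every air library, and the other 4 high smoke libraries, at 786 to 909, lay within the air range. The log2 difference was 0.43 (SE 0.11, limma adjusted p = 0.0133), and 0.19 without those 3 libraries. Psmb7 overlaps Nek6 on the opposite strand, and the table does not say how reads in the overlap were divided. Nek6 itself was at 326 in air and 329 in high smoke.

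The third standard cutting subunit, Psmb6, which carries the caspase-like site, could not be tested. Its normalized counts ran from 1.44 to 14.0 in air (median 9.81), from 1.21e-14 to 13.1 in low smoke (median 7.41) and from 7.25e-14 to 4.28 in high smoke (median 2.01). Values as small as 1.21e-14 are far below 1 read, and Psmb6 was a whole number of reads in 3 of 22 libraries. Every cell is known to need Psmb6 or its inducible counterpart, so these values are given as listed and no fold is drawn from them. The other beta subunits tested gave log2 differences of 0.34 for Psmb3, 0.25 for Psmb2 and 0.09 for Psmb1, none past the threshold. Psmb11, the thymus form, had values of 0 in most libraries and at most 2.25.

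In the alpha ring 1 of 7 tested subunits rose and none fell, with a median log2 difference of 0.08. Psma1 ran from 341 to 527 in air (median 399.8), from 363 to 686 in low smoke (median 467) and from 446 to 826 in high smoke (median 662). Replicates 3, 1 and 7 were the 3 highest, and 5 of 7 high smoke libraries exceeded all air libraries. The log2 difference was 0.59 (SE 0.14, limma adjusted p = 0.00520), and 0.40 without replicates 1, 3 and 7. At the other end of the ring, Psma6 was estimated -0.27 (SE 0.14, limma adjusted p = 0.188). Psma7, Psma5, Psma3l and Psma2 were at 0.29, 0.15, 0.08 and 0.05, and Psma4 was at -0.12, none past the threshold. Psma8, the testis form, was listed at 0 in most libraries and at most 2.17.

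**Figure D2:**
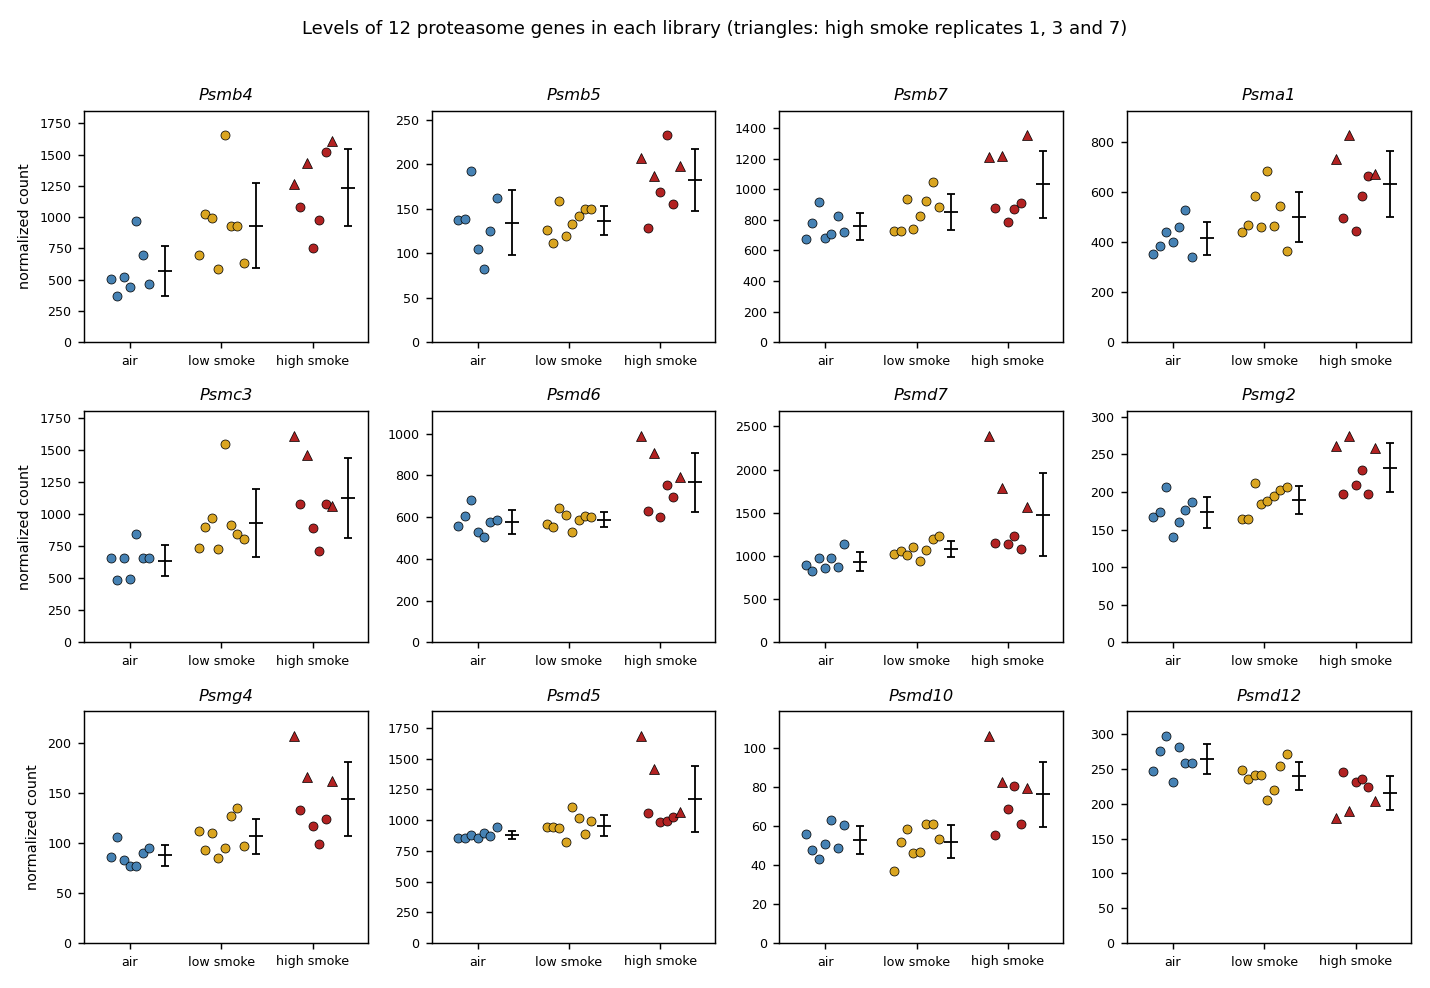
Normalized counts in each library (vertical axes, starting at 0) for the 11 members that rose and Psmd12, which fell, with the mean and SD of each group beside the points. Triangles mark high smoke replicates 1, 3 and 7; of the genes shown, the high smoke values lie entirely above the air values for Psmd5 alone.

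Among the ATPases that unfold substrates, Psmc3 was the 1 of 6 that rose, and the median of the ring was 0.12. Psmc3 ran from 490.5 to 851 in air (median 659), from 729.8 to 1554 in low smoke (median 876) and from 715 to 1614 in high smoke (median 1081). The high smoke libraries exceeded all air libraries in 6 of 7 cases, with replicates 1 and 3 highest. Means were 639 ± 122 (SD, n = 7) in air and 1131 ± 312 (SD, n = 7) in high smoke, a log2 difference of 0.80 (SE 0.17, limma adjusted p = 0.00273). The other ATPases lay between -0.06 for Psmc5 and 0.26 for Psmc4, so the ring's other subunits were not called with it. Without replicates 1, 3 and 7 Psmc3 was at 0.56.

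The non-ATPase subunits were the class with calls in both directions. Of 11 tested, 2 rose (18.2%) and 2 fell (18.2%), beside 9.21% and 7.05% of all genes tested, and the median was 0.02. Counts this small are not read as a trait of the class. Psmd7, a lid subunit that pairs with the ubiquitin-removing enzyme Psmd14, ran from 826 to 1144 in air (median 895), from 948 to 1237 in low smoke (median 1062) and from 1075 to 2389 in high smoke (median 1233). Replicates 1, 3 and 7 were highest at 1562 to 2389, and the other 4 high smoke libraries lay at 1075 to 1233. The log2 difference was 0.61 (SE 0.13, limma adjusted p = 0.00338), and 0.30 without the 3 libraries, a smaller value by over 1.5 times. Its partner Psmd14 was at -0.14 and did not pass.

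Psmd6, another lid subunit, ran from 507 to 683 in air (median 578), from 531 to 644 in low smoke (median 595) and from 602 to 989 in high smoke (median 752). In high smoke 5 of 7 libraries lay above all air libraries, and the log2 difference was 0.39 (SE 0.09, limma adjusted p = 0.00616), or 0.21 without replicates 1, 3 and 7. Psmd12, also a lid subunit, went the other way and ran from 232 to 297 in air (median 259), from 206 to 272 in low smoke (median 242) and from 179 to 247 in high smoke (median 224). Its 3 lowest libraries were high smoke replicates 1, 3 and 7, and the groups overlapped. The log2 difference of Psmd12 was -0.30 (SE 0.08, limma adjusted p = 0.0156), and -0.17 without these 3. It missed the threshold with array weights, which give each library its own weight (-0.23, limma adjusted p = 0.0595). Psmd12 was a whole number of reads in 3 of 22 libraries, and what its fractional counts do to the difference was not tested.

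Psmd2, a large base subunit that docks ubiquitin receptors and shuttle proteins, had 2427 ± 339.8 (SD, n = 7) normalized counts in air and 2042 ± 292 (SD, n = 7) in high smoke. Its log2 difference of -0.25 (SE 0.09, limma adjusted p = 0.0496) is close to the threshold. The call held in 4 of 22 fits that each left out 1 library, those without air replicate 7 or high smoke replicate 2, 5 or 6. Without replicates 1, 3 and 7 the difference was -0.11. The remaining non-ATPase subunits, Psmd1, Psmd3, Psmd4, Psmd8, Psmd11, Psmd13 and Psmd14, lay between -0.14 and 0.39. Psmd3, at 1790.2 ± 278 (SD, n = 7) in air and 2423 ± 834 (SD, n = 7) in high smoke, gave the largest of these (limma adjusted p = 0.0683).

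The assembly factors had the largest share of calls of any class: 4 of 7 rose and none fell, with a median of 0.39. They belong to 2 sets of chaperones. Psmg1 to Psmg4 help build the alpha ring of the core, and Psmd5, Psmd9 and Psmd10 help build the base of the regulatory particle. Both sets held members that rose.

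Psmg4 lies at chr17:31404578-31411958 on the minus strand in rn6 and ran from 76.8 to 106 in air (median 86.5), from 85.3 to 135 in low smoke (median 103) and from 98.6 to 207 in high smoke (median 134). The high smoke libraries exceeded all air libraries in 6 of 7 cases, and the log2 difference was 0.68 (SE 0.14, limma adjusted p = 0.00241). Psmg2, which works as a pair with Psmg1, ran from 141 to 206 in air (median 173), from 164 to 212 in low smoke (median 191) and from 197 to 274 in high smoke (median 229). Here 5 of 7 high smoke libraries were above all air libraries, and the log2 difference was 0.42 (SE 0.10, limma adjusted p = 0.00488). In both genes replicates 1, 3 and 7 were the 3 highest high smoke libraries, and without them the differences were 0.43 for Psmg4 and 0.27 for Psmg2. Psmg1 itself was at 0.10 and Psmg3, the partner of Psmg4, at 0.29 (SE 0.31), neither past the threshold. Psmg3 was low, at 13.0 ± 5.45 (SD, n = 7) in air, and its error was the largest of the members tested after Psma2.

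Psmd5, which holds back the docking of the base onto the core, was the member with no overlap between high smoke and air. It ran from 853 to 943 in air (median 873), from 819 to 1109 in low smoke (median 944) and from 983 to 1684 in high smoke (median 1059). All 7 high smoke libraries lay above all air libraries, a pattern shown by 1.30% of the genes tested, and the log2 difference was 0.39 (SE 0.10, limma adjusted p = 0.00846). The 4 high smoke libraries other than replicates 1, 3 and 7 lay at 983 to 1059, just above the air maximum, and without the 3 the difference was 0.21. Psmd10, also known as gankyrin, had 52.8 ± 7.22 (SD, n = 7) in air and 76.1 ± 16.7 (SD, n = 7) in high smoke, a log2 difference of 0.50 (SE 0.14, limma adjusted p = 0.0174). It missed the threshold without high smoke replicate 1 (0.42, limma adjusted p = 0.0503) and was at 0.32 without replicates 1, 3 and 7. Psmd9 was the assembly factor with the lowest estimate, -0.22.

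No activator was called in high smoke against air, and the class median was 0.10 over 5 genes. Psme1 and Psme2, which form the interferon-inducible cap PA28, were at 0.21 and 0.10. Psme3, the nuclear cap subunit, was at 0.01, and Psme4, the cap known as PA200, was lowest at -0.14. Psmf1, which inhibits the core, was at 0.15. Both genes named after a subunit they bind were uncalled, with 0.07 for Psme3ip1 and -0.10 for Psmc3ip.

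The size of the high smoke response differed among its libraries. Replicates 1, 3 and 7 were the 3 highest high smoke libraries for 7 of the 11 risen members, and 2 of them were among the 3 highest for the other 4. The 11 were called with these 3 libraries included, which stood apart over all genes tested. No such count is given for other risen genes, so the 7 are not read as particular to the proteasome. The mean log2 level of the beta ring, relative to the air mean, was 0.64 to 0.72 in those 3 and 0.13 to 0.51 in the other 4, and air spanned -0.13 to 0.31. For the assembly factors the values were 0.41 to 0.55 and 0.07 to 0.30, with air at -0.14 to 0.19. The activators did not show such a gap, at -0.02 to 0.17 against -0.13 to 0.13.

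With those 3 libraries left out, 0 of the 44 members passed in either direction with limma, beside 0.681% of all genes risen and 0.181% fallen. At an unadjusted p below 0.05 there were 9 members higher, all of them among the 11 and leaving out Psmb5 and Psmb7, and 3 lower, Psma4, Psma6 and Psmd14. Of all genes tested, 13.8% were past that level in either direction. All 11 risen members kept a difference above 0, from 0.19 for Psmb7 to 0.95 for Psmb4, and the median of all members was 0.06. This fit has 4 high smoke libraries in place of 7. The 11 had been chosen with these same 4 and the same air libraries, which favours differences above 0. Neither the kept signs nor the 9 members higher are therefore separate evidence of a rise.

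**Figure D3:**
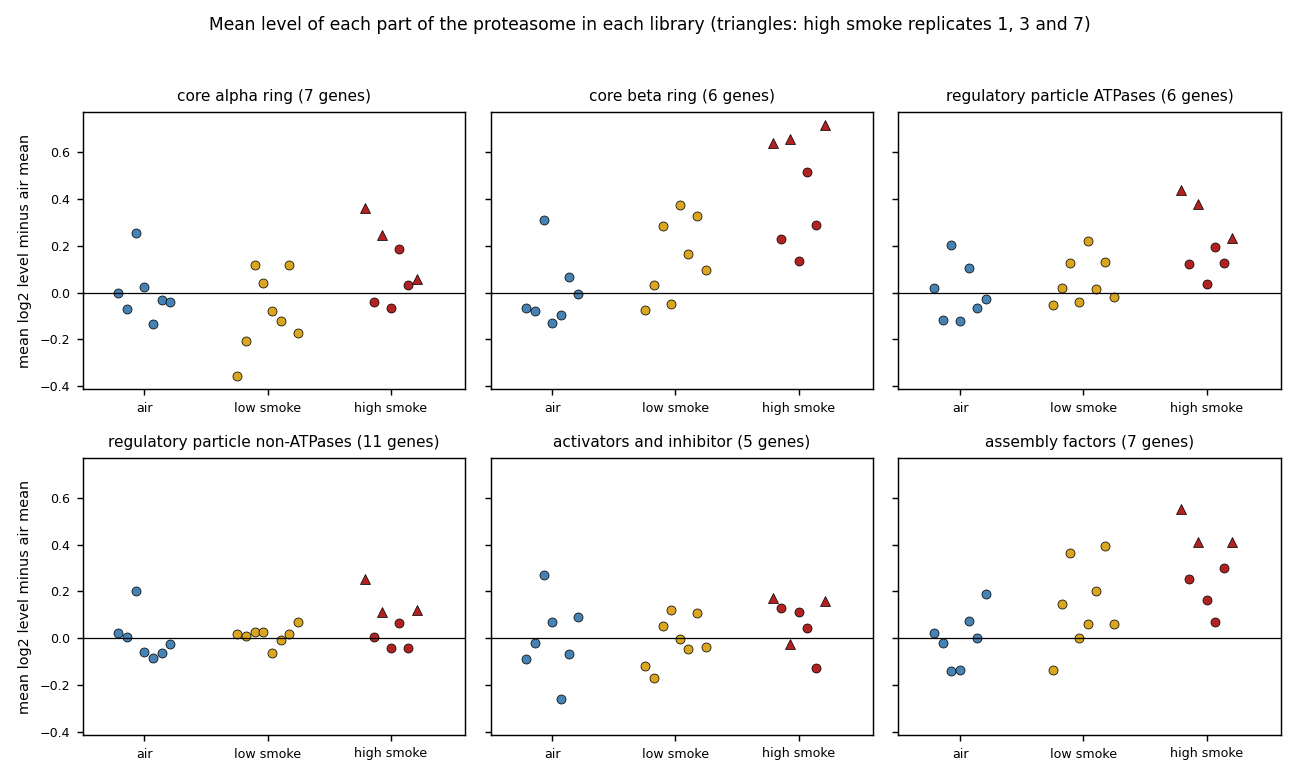
Mean log2 level of each class in each library, relative to the air mean (vertical axis); each point is 1 library and triangles are high smoke replicates 1, 3 and 7. In the beta ring and the assembly factors the 3 triangles are the highest high smoke points, while in the activators they are mixed with the others.

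In low smoke no member was called against air. The limma count was 0 of 44, beside 0% of all genes risen and 0% fallen; the rank-sum test also gave 0, and 2 members, Psmb4 and Psmc3, had an unadjusted p below 0.05, as did 6.40% of all genes tested. Their log2 differences were 0.71 (SE 0.21, limma adjusted p = 0.495) for Psmb4 and 0.53 (SE 0.16, limma adjusted p = 0.495) for Psmc3. Estimates were above 0 for 22 and below 0 for 22 members, with a median of 0.00. Of the 44 members tested, 15 had a low smoke mean above air and a high smoke mean above low smoke. The share of all genes with this order is not given here. The 15 included 10 of the 11 that rose in high smoke, whose choice by high smoke against the same air libraries favours such an order. The exception was Psmd10, at 51.9 ± 8.40 (SD, n = 8) in low smoke.

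Against low smoke, 3 members rose in high smoke, 6.82% of those tested beside 3.80% of all genes, and 0 fell beside 2.98%. They were Psmd10 with a log2 difference of 0.53 (SE 0.14, limma adjusted p = 0.0276), Psmd6 with 0.37 (SE 0.09, limma adjusted p = 0.0247) and Psme1 with 0.36 (SE 0.11, limma adjusted p = 0.0491). Psme1 had 643 ± 76.0 (SD, n = 8) normalized counts in low smoke and 830.4 ± 147 (SD, n = 7) in high smoke, with air between at 719. Psme1 overlaps Emc9 on the opposite strand, and how reads in the overlap were divided is not stated. Emc9 itself was at 119 in air and 121 in high smoke. At an unadjusted p below 0.05 there were 17 members higher and 1 lower, beside 25.6% of all genes in either direction. The rank-sum test called 0, beside 96 genes risen and 87 fallen over all genes tested. Each of the 3 calls was lost without high smoke replicate 1, 3 or 7 alone, and that of Psmd10 also without low smoke replicate 1, 2 or 4. The call of Psme1, a whole number of reads in 2 of 22 libraries, held in 7 of the 22 fits with 1 library left out, those without air replicate 3, 5 or 6, low smoke replicate 7 or high smoke replicate 4, 5 or 6.

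Psmb8, Psmb9 and Psmb10 replace Psmb5, Psmb6 and Psmb7 in the immunoproteasome, the form known to be raised by interferon. Psmb8 rose in high smoke, from 79.0 ± 11.0 (SD, n = 7) in air to 108 ± 15.9 (SD, n = 7), a log2 difference of 0.44 (SE 0.14, limma adjusted p = 0.0348). Psmb9 and Psmb10 were at 0.12 and 0.03 and did not pass. The Psmb8 call was lost when any 1 of air replicates 1, 2, 4 and 7 or high smoke replicates 1, 3, 5 and 6 was left out, and without replicates 1, 3 and 7 it did not pass (0.50, limma adjusted p = 0.179). Psmb8 was a whole number of reads in 2 of 22 libraries. The ratio of each inducible subunit to the standard one it replaces was compared within libraries, where a library's scaling nearly cancels, by exact two-sided permutation tests adjusted over 6 comparisons.

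The log2 ratio of Psmb8 to Psmb5 differed from air by -0.02 (SE 0.21, exact permutation p = 0.944, adjusted p = 0.954) in high smoke, where Psmb8 and Psmb5 were 0.44 and 0.46 above air, and by 0.02 (SE 0.22, exact permutation p = 0.945, adjusted p = 0.954) in low smoke. The ratio of Psmb10 to Psmb7 was lower in low smoke than in air. The difference was -0.32 (SE 0.09, exact permutation p = 0.00575, adjusted p = 0.0297), with ratios of -3.05 to -2.70 against -2.99 to -2.36 in air. By medians it was -0.41 and did not pass (exact permutation adjusted p = 0.105). In high smoke the difference of means was -0.39 (SE 0.18, exact permutation p = 0.0472, adjusted p = 0.0944), which did not pass after adjustment, and -0.09 without high smoke replicates 1, 3 and 7. Both comparisons used the same air libraries.

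The planned ratio of Psmb9 to Psmb6, which is among the 6 comparisons, is not read here, since Psmb6 was below the level filter and was a whole number of reads in 3 of 22 libraries, so its test is void. Psmb9 itself was 84.6 ± 14.5 (SD, n = 7) in air and 92.0 ± 16.6 (SD, n = 7) in high smoke.

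**Figure D4:**
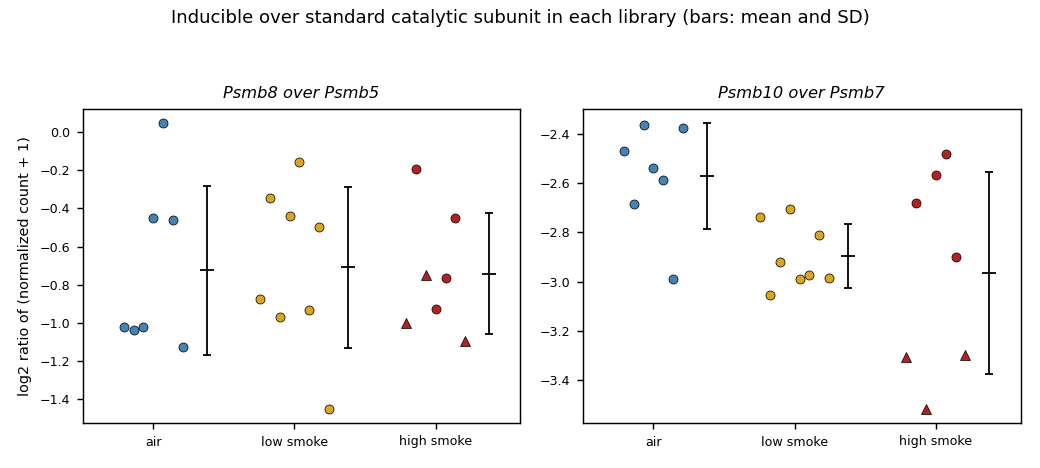
Log2 ratio of Psmb8 to Psmb5 and of Psmb10 to Psmb7, each an inducible over the standard cutting subunit it replaces, in each library (vertical axes, on (normalized count + 1)), with the mean and SD of each group; triangles are high smoke replicates 1, 3 and 7. The Psmb8 to Psmb5 ratios of the 3 groups overlap, and for Psmb10 to Psmb7 the 3 triangles lie lowest of all libraries.

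Members differed in how much they varied between rats of a group. The median residual SD of the log2 values was 0.219 over the members tested and 0.233 over all genes tested. Psmc6, an ATPase, and Psme3ip1 varied least, with 0.0982 and 0.0977. Psma2, an alpha subunit, varied most, with 0.705, more than 97% of all genes. Its counts ran from 361 to 700.1 in air (median 638), from 114 to 826 in low smoke (median 403) and from 209 to 964 in high smoke (median 715), so all groups overlapped widely, although it was a whole number of reads in all 22 libraries. Psmb4, with the largest rise, also had one of the larger spreads, 0.447.

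Because members of several particles rose in the same comparison, the 250 bases before the gene start are shown for the 2 members with the smallest p among those risen and for Psmd2 among those fallen. They come from RefSeq on the rat assembly GRCr8, a different build from the rn6 positions above, and read 5′ to 3′ towards the gene. Capitals mark matches on either strand to TGANNNNGC, CCAAT or GGCGGG. TGANNNNGC is a looser pattern than the core of the antioxidant response element, with any base at each N. The Psmb4 window is chr2:185134562-185134811 on the minus strand, that of Psmg4 chr17:30923374-30923623 on the minus strand and that of Psmd2 chr11:93763389-93763638 on the minus strand.
Psmb4: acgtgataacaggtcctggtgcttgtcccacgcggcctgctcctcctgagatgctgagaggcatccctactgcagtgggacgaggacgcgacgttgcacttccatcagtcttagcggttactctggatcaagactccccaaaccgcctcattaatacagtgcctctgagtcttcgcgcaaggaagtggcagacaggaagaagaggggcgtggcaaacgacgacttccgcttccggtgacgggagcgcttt
Psmg4: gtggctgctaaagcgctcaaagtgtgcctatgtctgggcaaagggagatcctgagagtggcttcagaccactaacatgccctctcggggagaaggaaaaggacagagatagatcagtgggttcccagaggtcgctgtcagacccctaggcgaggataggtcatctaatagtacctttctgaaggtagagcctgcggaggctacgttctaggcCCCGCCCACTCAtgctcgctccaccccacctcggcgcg
Psmd2: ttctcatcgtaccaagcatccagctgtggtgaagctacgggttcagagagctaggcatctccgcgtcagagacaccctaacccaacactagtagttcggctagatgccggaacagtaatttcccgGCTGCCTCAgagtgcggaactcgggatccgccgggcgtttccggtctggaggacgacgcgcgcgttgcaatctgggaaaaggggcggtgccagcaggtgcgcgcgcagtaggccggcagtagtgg
The Psmb4 window held none of the 3 motifs. In Psmg4 a GGCGGG match on the minus strand at -38, counted from the start, overlaps a TGANNNNGC match on the minus strand at -35. Psmd2 has a TGANNNNGC match on the minus strand at -125.

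Over the members with a window in the table, TGANNNNGC was found in 17 of 41 member promoters (41.5%) beside 34.6% of all 27457. CCAAT was found in 20 of 41 member promoters (48.8%) beside 34.3% of all 27457, and GGCGGG in 22 of 41 member promoters (53.7%) beside 31.1% of all 27457. Of the 10 risen members with a window, 5 held TGANNNNGC, 5 held CCAAT and 5 held GGCGGG. A match is a description of the letters and not of binding, and a TGANNNNGC match need not be an antioxidant response element.

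Genes around the proteasome were called in both directions, few in each list. Over all genes tested, 9.21% rose and 7.05% fell. Of 10 tested partners, which include the subunits Adrm1 and Sem1, bound ubiquitin enzymes and the core chaperone Pomp, none rose and 2 fell, with a median of 0.01. Ecpas, a scaffold that binds the proteasome, fell from 1695 ± 137 (SD, n = 7) to 1375 ± 126 (SD, n = 7), with a log2 difference of -0.30 (SE 0.07, limma adjusted p = 0.00455). Txnl1, a thioredoxin-like protein bound to the regulatory particle, fell, with -0.21 (SE 0.07, limma adjusted p = 0.0446).

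Of 8 genes tied to the transcription or location of proteasomes, 1 rose and 1 fell. Nfe2l1 rose from 5130.5 ± 424 (SD, n = 7) in air to 6929 ± 1052 (SD, n = 7), a log2 difference of 0.42 (SE 0.09, limma adjusted p = 0.00316), and stood at 6140.1 ± 706 (SD, n = 8) in low smoke. Akirin2, which brings proteasomes into the nucleus, fell, with -0.26 (SE 0.09, limma adjusted p = 0.0484). Nfe2l2, the regulator of antioxidant genes, was at -0.15 (limma adjusted p = 0.216) and did not pass.

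Among 11 tested genes that carry proteins to the proteasome or extract them for it, 2 rose and 2 fell, with a median of 0.04. One that rose was the shuttle Ubqln4, with 0.36 (SE 0.09, limma adjusted p = 0.00701). The VCP cofactor Nploc4 fell, with -0.24 (SE 0.06, limma adjusted p = 0.0138). The shuttle Ubqln1, named after its value was seen, fell by 0.19 on the log2 scale (limma adjusted p = 0.0235). Other large complexes served as a setting: 1 of 8 CCT chaperonin subunits rose, Cct8, with 0.37 (SE 0.12, limma adjusted p = 0.0319), and the list had a median of 0.12. In the COP9 signalosome, which is related in build to the proteasome lid, 1 of 10 rose, Gps1, with 0.20 (SE 0.07, limma adjusted p = 0.0435), and the median was -0.00. Without high smoke replicates 1, 3 and 7, 0 genes passed in each of these lists around the proteasome.

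Markers of several lung cell types also differed between high smoke and air, and their part in the proteasome results was not tested. Of 9 epithelial markers 4 rose, Sftpc, Sftpd, Ager and Hopx, and the other 5 did not pass. Those were Epcam, Sftpa1 and Sftpb at 0.12, 0.05 and 0.01, and Nkx2-1 and Scgb1a1 at -0.18 and -0.19. Summed counts of all 9 markers were 150466 to 197941 in air and 199668 to 266710.0 in high smoke. Of 6 monocyte and interstitial macrophage markers the 3 complement genes C1qa, C1qb and C1qc rose, with sums of 2117 to 2646 and 2498 to 3481. The globin genes Hbb and Hba-a2 rose among 4 red cell markers, with sums of 3874 to 5849 and 6061 to 13598. Of 7 tested B and plasma cell markers 2 rose, Cd79a and Xbp1, and Mzb1 fell, with sums of 1909 to 3269 and 2705 to 4450.3. Among 6 endothelial markers Cldn5 rose and Tek fell, with sums of 27269 to 34502 and 26306 to 34042.

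Of 5 alveolar macrophage markers Cd68 fell, with sums of 3705 to 4878 in air and 3731 to 4868 in high smoke. No marker of T and NK cells (7 tested), neutrophils (4) or dividing cells (6) was called. Their sums in air and high smoke were 303 to 702 and 396 to 719.9 for T and NK cells, 219 to 530.4 and 223 to 461 for neutrophils, and 2167 to 3923 and 2182 to 3884 for division. Of 9 interferon response genes the transcription factor gene Irf1 rose, with 0.46 (SE 0.07, limma adjusted p = 3.58e-04), and the sums were 5172 to 8981 and 6381 to 9866. Without high smoke replicates 1, 3 and 7, Irf1 at 0.40 (limma adjusted p = 0.0230) and Mzb1 at -1.27 (limma adjusted p = 0.0441) still passed, and the other marker and interferon genes named here did not. Among those Sftpc was at 0.45 (limma adjusted p = 0.232), Ager at 0.62 (limma adjusted p = 0.112) and Hbb at 0.65 (limma adjusted p = 0.0777). No marker in these lists had a group mean below 1.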

How the data were processed

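Per the submitters' processing notes, the authors used STAR 2.7.3a, Partek, DESeq2 and the rat build rn6; how each was set is not given in the sources used here. The deposited table holds signal, that is counts of reads for each gene after division by the library's size factor, with 19249 genes and 22 libraries. The labels list 23 samples, and the high smoke sample marked as removed was not analysed here. Within 0.02 reads, 80.7% to 82.8% of values under 200 reads were whole reads, so no count model was run. For the members, 37 were whole wherever above 0 and 7 were whole in at most 3 libraries. Depth limits the low genes most, and no counting interval was computed.

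Values were transformed to log2(value + 1), and the 14414 genes with a mean of at least 10 were tested in one limma 3.58.1 model (R 4.3.3, trend on) over the 3 groups, two-sided, with Benjamini-Hochberg adjustment over all genes. The fit was also run on simulated data with independent spread in each gene. That simulation held no libraries set apart from their group, so it says nothing on that feature of these data. Ratios used exact permutation tests. The members, lists and tests were chosen with earlier results of these data known. Named were all members past the threshold in any comparison, the cutting subunits with their inducible counterparts, the highest and lowest member of each class, and up to 3 called genes of each list by p; other members are named as values. Of 132 list genes, 126 matched by symbol. Some results of the lists around the proteasome are not reported here. Of the members, 41 had a promoter in the RefSeq table. Alternatives varied the pseudocount, level filter, scaling, model settings, test and libraries.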

Additional observations from a re-analysis of the deposited data

Results flagged for a closer look

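Among 69 sets of 1 gene in 1 group, 5 had a single library far from the others of its group by Dixon's 95% criterion, which chance alone gives in about 1 in 20 sets. Low smoke replicate 5 was such a library for 2 of the most changed members. In Psmb4 it had 1653 normalized counts, with the nearest low smoke library at 1026, and in Psmc3 it had 1554, with the nearest at 971. Psma6 was 179 in air replicate 3, where the nearest was 120.0. Psmb1 was 339 in high smoke replicate 5, where the nearest was 249. Psmd9 was 64.8 in air replicate 5, where the nearest was 42.1. Psma6, Psmb1 and Psmd9 were not called in high smoke against air, and the calls of Psmb4 and Psmc3 in that comparison held in all 22 fits with 1 library left out.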

How the results depend on the processing

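The count of 11 risen members in high smoke against air was 6 with the exact rank-sum test, 0 without high smoke replicates 1, 3 and 7, and 9 to 13 with 1 library left out. The count of 2 fallen was 1 with no level filter, with the trend off, with only the 2 groups compared and with the rank-sum test, 0 with array weights and 0 without replicates 1, 3 and 7. It was 1 to 2 with 1 library left out. Against low smoke, the 3 risen became 5 with a mean of at least 50, 0 with the rank-sum test, 0 without replicates 1, 3 and 7, and 0 to 11 with 1 library left out: 0 without high smoke replicate 1, 3 or 7, 1 without low smoke replicate 1, 2 or 4, and 6, 10, 6 and 11 without high smoke replicates 2, 4, 5 and 6. The 0 fallen became 0 to 1, with 1 without high smoke replicate 4. Counts with a mean of at least 50 or 1 library left out are given without the share of all genes called. In low smoke against air both counts stayed 0 in all 35 alternatives. The Psmb9 to Psmb6 difference, which has no meaning as a subunit ratio at these Psmb6 values, was 1.67 in high smoke, 1.48 by medians (adjusted p = 0.105, exact permutation), 1.40 without replicates 1, 3 and 7, and 1.42 to 1.96 with 1 library left out. The Psmb10 to Psmb7 difference in low smoke was -0.41 by medians, which did not pass (adjusted p = 0.105, exact permutation). With 1 library left out it was -0.39 to -0.29, missing the threshold without air replicate 3, 5 or 7. In high smoke it was -0.47 to -0.30, past the threshold without high smoke replicate 5 alone (exact permutation adjusted p = 0.0420). All these adjusted p values of ratios were taken over 6 comparisons that include the void Psmb9 to Psmb6 tests. The cause of these changes was not tested. No result that had passed a test changed its sign under any alternative run. No paired analysis was possible because the numbers of the replicates follow accession order and link no animals across groups.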

Other observations

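The 3 libraries with the highest Psmb4 were low smoke replicate 5 (1653 normalized counts), high smoke replicate 7 (1607) and high smoke replicate 6 (1523). In the same 3 libraries Psmb6 was listed at no more than 6.67e-11, and in the other 19 libraries it was at least 1.44. This was noticed after the values were seen and was not tested. The Psmb4 gene is on chromosome 2 and Psmb6 on chromosome 10 in rn6.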
